A study of Mus musculus with 20 samples.

Results

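The CXC chemokines are small secreted proteins that direct the movement of leukocytes, and the CXC chemokine receptors are the cell surface proteins that read them. The genes described here were taken by symbol: the ligands Cxcl1, Cxcl2, Cxcl10, Cxcl12, Cxcl13 and Cxcl16 and the receptors Cxcr2, Cxcr3, Cxcr4 and Cxcr6, which are 10 of the 16003 genes in the single-cell count table. The study asked how cells of the injured mouse spinal cord respond when microglia are removed. Female C57BL/6J mice, 8 to 10 weeks old, received a diet with PLX5622 at 1200 ppm (as stated in the labels), an inhibitor of the Csf1 receptor that depletes microglia, or a vehicle diet from 2 weeks before surgery until the end point. Mice had a contusion of the spinal cord at T9 or a sham laminectomy, and a 1 cm piece of unperfused cord was dissociated at 7 or 28 days post-injury (dpi). Each of the 6 conditions (sham, 7 dpi and 28 dpi on vehicle, and the same on PLX5622) was 1 library from 3 to 4 pooled mice, and the label of each sham library names both end points. Blood was not flushed from the cord, so leukocytes of the vessels can be among the cells. Bulk RNA-seq samples of the series were not analysed here.

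CXC ligands are grouped by the receptors they bind. Cxcl1 and Cxcl2 bind Cxcr2 and recruit neutrophils, Cxcl10 is induced by interferons and binds Cxcr3 on T and NK cells, and Cxcl12 binds Cxcr4 and retains or recruits many kinds of leukocyte. Cxcl13 binds Cxcr5 on B cells, and Cxcl16 is made as a membrane protein that can be shed and binds Cxcr6 on T cells. In the nervous system Cxcl12 is known as a product of endothelial and meningeal cells, and Cxcl10 as a product of glia and myeloid cells during inflammation.

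Promoter sequence is shown for the inducible ligands Cxcl1, Cxcl2 and Cxcl10, because the levels of Cxcl2 and Cxcl10 below are set beside lists of immediate-early and interferon-induced genes. RefSeq promoters (GRCm38.p6) were matched for 9 of the 10 genes. Cxcl16 was not matched. Each line gives the 250 bases before the gene start, 5′ to 3′ on the strand of the gene. Capitals mark matches on either strand to GGGANNNNCC, a form of the site bound by NF-kappaB, or to GAAANNGAAA, the core of the interferon-stimulated response element. The Cxcl1 promoter lies at chr5:90890995-90891244 on the plus strand, that of Cxcl2 at chr5:90903649-90903898 on the plus strand and that of Cxcl10 at chr5:92348890-92349139 on the minus strand.
Cxcl1: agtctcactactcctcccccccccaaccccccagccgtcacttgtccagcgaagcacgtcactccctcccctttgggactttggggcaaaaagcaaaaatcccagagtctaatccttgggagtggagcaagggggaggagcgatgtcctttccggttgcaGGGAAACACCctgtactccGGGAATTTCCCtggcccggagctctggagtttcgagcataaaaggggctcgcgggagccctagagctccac
Cxcl2: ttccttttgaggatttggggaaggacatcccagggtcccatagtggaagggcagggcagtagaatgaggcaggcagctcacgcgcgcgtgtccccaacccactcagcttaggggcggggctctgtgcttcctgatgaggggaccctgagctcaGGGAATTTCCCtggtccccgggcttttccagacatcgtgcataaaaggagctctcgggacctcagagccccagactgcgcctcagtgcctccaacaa
Cxcl10: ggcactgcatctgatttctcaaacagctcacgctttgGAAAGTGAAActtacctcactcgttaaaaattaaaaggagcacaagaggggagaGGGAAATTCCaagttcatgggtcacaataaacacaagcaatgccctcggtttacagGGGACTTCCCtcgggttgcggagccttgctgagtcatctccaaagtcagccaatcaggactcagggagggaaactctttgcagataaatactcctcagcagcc
The Cxcl1 promoter held 2 separate stretches matching GGGANNNNCC, of which GGGAATTTCCC matched on both strands in overlapping positions. The same GGGAATTTCCC stood once in the Cxcl2 promoter, 97 to 87 bases before the start. The Cxcl10 promoter held GGGAAATTCC and GGGACTTCCC, and it alone of the 9 held GAAANNGAAA, as GAAAGTGAAA 213 to 204 bases before the start. Over all 32851 promoters of the same length, 17.6% held GGGANNNNCC and 2.98% held GAAANNGAAA. A match of GGGANNNNCC was also found for Cxcl13 (GGGAGGGCCC), and neither motif was found in these windows for Cxcl12, Cxcr2, Cxcr3, Cxcr4 or Cxcr6.

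The table held 21016 cells in 14 clusters numbered by the authors, which were named here from 83 marker genes. Of the 77 markers in the table, 72 were highest in the cluster they were listed for. Vehicle libraries held 1795, 7439 and 9846 cells (sham, 7 dpi and 28 dpi), and PLX5622 libraries held 492, 504 and 940. Library totals ran from 2606149 to 35694246 unique molecular identifiers (UMIs, each a captured transcript), and between any pair of libraries at most 21 cell barcodes were the same. Levels are given as CPM, the UMIs of a gene summed over the cells of a cluster in a library and scaled to a total of 1000000 UMIs of those cells, with exact Poisson 95% intervals, and ratios carry exact binomial 95% intervals. With 1 library per condition no difference has a replicate check, no test between conditions was possible, and every interval covers counting error only. Clusters are called microglia, monocyte-derived macrophage (MDM), endothelial, monocyte and dendritic, T and NK, neutrophil and so on, and each name means cells like that type by these markers.

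In the 6 libraries together the genes differed in the clusters that held them. Cxcl12 was an endothelial transcript, with 94.3% of its 6571 UMIs in that cluster. Cxcr2 was at its highest in the neutrophil cluster with 83.3% of 888 UMIs, and Cxcr6 in the T and NK cluster with 92.6% of 526. Cxcl13 had 76.2% of 1272 UMIs in the monocyte and dendritic cluster, and Cxcr3 had 62.7% of 343 UMIs in the T and NK cluster. Cxcl16 and Cxcr4 were spread over several clusters, and the MDM cluster, which held 6791 cells, gave 56.5% of the 15670 Cxcl16 UMIs and 59.3% of the 5223 Cxcr4 UMIs. Cxcl1 was barely counted at this depth, with 38 UMIs in 29 cells.

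**Figure D1:**
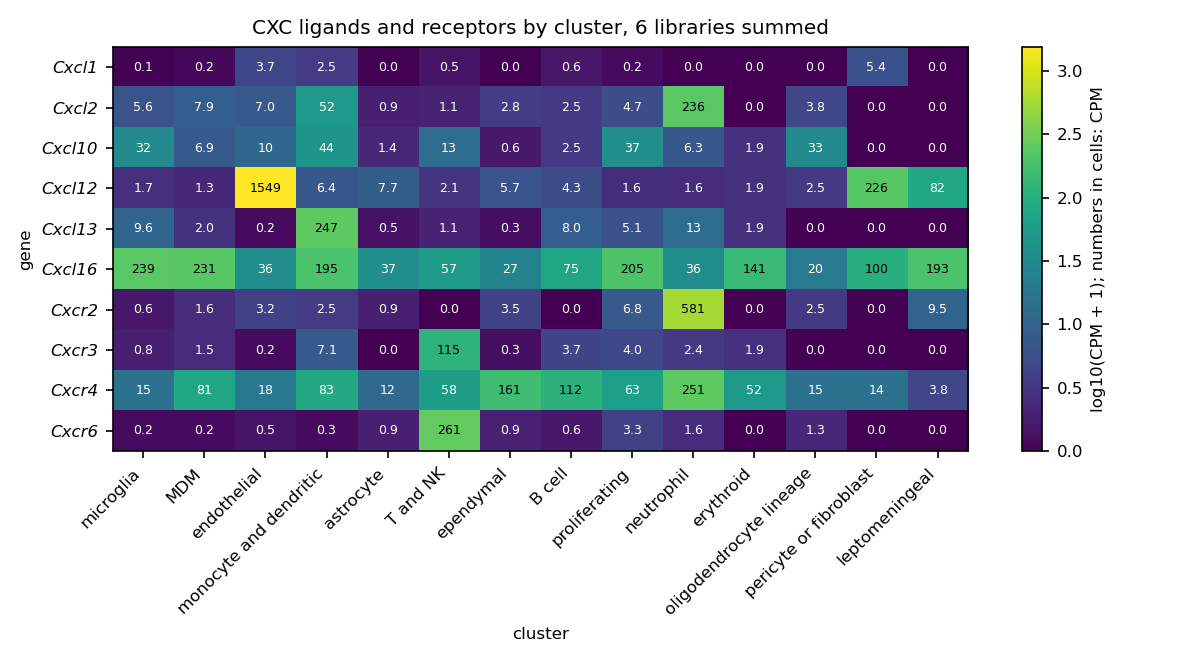
Heat map of the level of each of the 10 genes (rows) in each of the 14 clusters (columns), as CPM with the 6 libraries summed; colour is log10(CPM + 1) and the printed numbers are CPM. Cxcl12 stands out in the endothelial cluster at 1549 CPM and Cxcr2 in the neutrophil cluster at 581 CPM. Cxcl16 is at 195 to 239 CPM in the microglia, MDM, proliferating, and monocyte and dendritic clusters.

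Transcripts of Cxcl10 and Cxcl13 were concentrated in very few cells. The 10 cells highest in Cxcl10 held 38.2% of its UMIs, and the 10 cells highest in Cxcl13 held 39.8%. One cell held 119 UMIs of Cxcl10 and another 133 UMIs of Cxcl13. The same share was 17.8% for Cxcl2, 12.5% for Cxcl12 and 2.24% for Cxcr4, whose UMIs came from 3424 cells. A level of Cxcl10 or Cxcl13 in a cluster can therefore rest on few cells. Numbers of cells on vehicle are given for the microglia and for the monocyte and dendritic cluster.

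**Figure D2:**
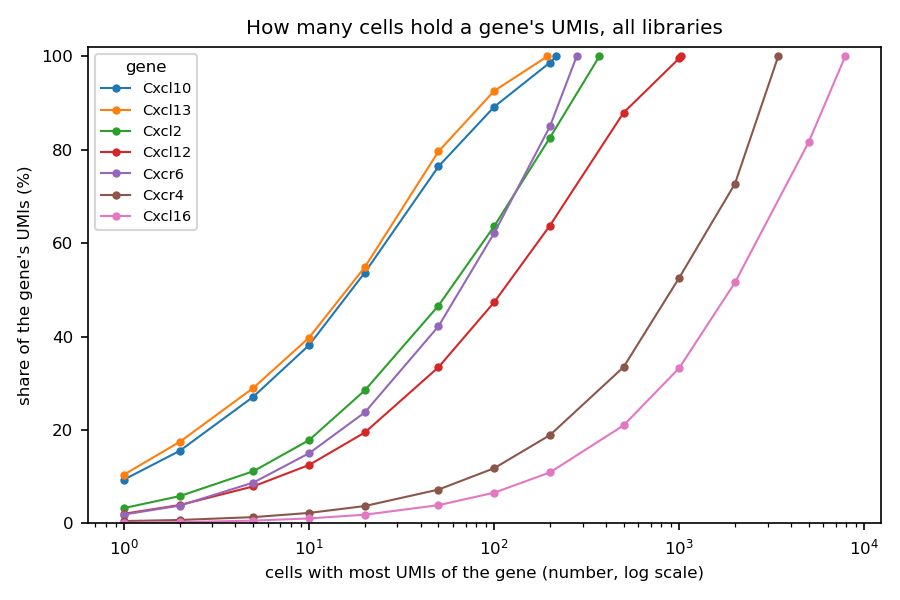
Cumulative share of a gene's UMIs (y axis, percent) held by its highest cells (x axis, number of cells, log scale) for 7 of the genes, all libraries together. The curves of Cxcl10 and Cxcl13 reach 53.7% and 54.9% with 20 cells, above those of the other genes drawn.

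Cxcl1, a neutrophil attractant, had 15 of its 38 UMIs in the endothelial cluster. The endothelial level was 3.24, 4.23 and 2.25 CPM in the sham, 7 dpi and 28 dpi vehicle libraries and 0, 10.6 and 0 CPM in the PLX5622 libraries, from 1, 6, 2, 0, 6 and 0 UMIs. At 7 dpi the PLX5622 to vehicle log2 ratio was 1.33 (−0.58, 3.23), so no difference was detectable at this depth. Its level in the pericyte or fibroblast cluster, 5.37 CPM, came from 3 UMIs in 1 cell.

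Cxcl2, which binds the same receptor, was highest in the neutrophil cluster at 236 CPM (210 to 265 CPM), followed by the monocyte and dendritic cluster at 52.5 CPM. The MDM cluster was at 7.87 CPM, the endothelial at 7.00 CPM and the microglia at 5.64 CPM, and the endothelial interval overlapped both of the others. Within the neutrophil cluster the level was 377, 249 and 93.7 CPM on vehicle (105, 118 and 34 UMIs in sham, 7 dpi and 28 dpi) and 0, 829 and 282 CPM on PLX5622 (0, 22 and 22 UMIs). The vehicle libraries stepped down from sham to 28 dpi, and the 2 injured PLX5622 libraries stood above the vehicle libraries of the same day. The log2 ratio to sham on vehicle was −0.59 (−0.99, −0.20) at 7 dpi and −2.01 (−2.61, −1.44) at 28 dpi. PLX5622 over vehicle was 1.73 (1.01, 2.40) at 7 dpi and 1.59 (0.74, 2.40) at 28 dpi, and in sham the count table gave 0 in 11 PLX5622 neutrophils, where the matrix file held 2 UMIs in 1 of them that the table had set to 0. The 22 UMIs at 7 dpi on PLX5622 came from 3 of 12 cells, 1 of which held 13, and the ratio was 0.53 without the highest cell of each library, 0.64 under edgeR's TMM factors and 0.31 under DESeq2 size factors, all under 2-fold and below the interval.

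In the monocyte and dendritic cluster Cxcl2 was likewise highest in sham on vehicle, at 140 CPM against 48.2 at 7 dpi and 50.2 at 28 dpi, log2 ratios of −1.54 and −1.48. PLX5622 libraries of that cluster held 0, 5 and 0 UMIs. The microglia went the other way on vehicle, with 0 CPM in 674 sham cells, 8.89 CPM at 7 dpi and 5.05 CPM at 28 dpi. The 7 dpi UMIs were in 27 of 2154 cells (1.25%) and those of 28 dpi in 14 of 3974 (0.352%), while 0 of 674 allows a share of up to 0.546% by the exact binomial interval, so a difference from sham was detectable at 7 dpi only. Cxcl2 microglia were rare, 41 of 7018 cells (0.584%, against 0.205% of astrocytes), and none were seen among the 29, 61 and 126 microglia of the PLX5622 libraries. In the MDM cluster the vehicle levels were 15.5, 6.49 and 9.38 CPM and the PLX5622 levels 0, 8.02 and 4.66 CPM.

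Immediate-early genes, the transcripts that cells make within minutes of a stimulus and that dissociation of tissue can also induce, were counted beside Cxcl2. Neutrophils with a Cxcl2 UMI (109 cells) held 6295 CPM of the immediate-early list against 3711 CPM in the 422 without. That order held in each of the 3 vehicle libraries (9817 against 4667, 4927 against 3500 and 3666 against 3035 CPM) and in the 7 and 28 dpi PLX5622 libraries (13632 against 10543 and 8488 against 3082 CPM). Over the whole neutrophil cluster the list was 5938, 3855 and 3135 CPM on vehicle and 3322, 11192 and 3971 CPM on PLX5622, which is also the order of Cxcl2 within each diet. Its part in the Cxcl2 levels was not tested.

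Cxcl10, the interferon-induced ligand of Cxcr3, was found in 217 cells. With the libraries summed, the monocyte and dendritic cluster was highest at 44.3 CPM (38.0 to 51.4), and the proliferating cluster at 36.9 CPM (31.4 to 43.1) overlapped with it. The oligodendrocyte lineage level of 32.7 CPM came from 26 UMIs in 1 cell. The microglia, at 31.7 CPM, gave 44.3% of the UMIs, and MDMs were at 6.90 CPM. By library on vehicle, the CPM of microglia was above the monocyte and dendritic cluster in sham and at 28 dpi and below it at 7 dpi. In sham and at 28 dpi that cluster held 16 UMIs in each library. The sham order also rests on 1 microglial cell with 119 of 168 UMIs, so neither order is read as a difference. Microglia in sham stood at 80.2 CPM, in 7 dpi at 23.1 and in 28 dpi at 29.5 CPM on vehicle, from 5, 30 and 51 cells, and at 0, 0 and 9.31 CPM on PLX5622, where 2 of 126 microglia held a UMI at 28 dpi. One sham cell held 119 of the 168 sham UMIs. The log2 ratio to sham was −1.79 (−2.12, −1.47) at 7 dpi and −1.44 (−1.73, −1.15) at 28 dpi, and without the highest cell of each library they were −0.37 and 0.19, so both rest on that sham cell. At 7 dpi 0 of 61 PLX5622 microglia allows a share of up to 5.87%, above the 1.39% of vehicle microglia with a UMI, so no difference was detectable, and the matrix file held a UMI in 1 microglial cell of that library. At 28 dpi PLX5622 over vehicle was −1.67 (−3.55, −0.29), while the shares of cells were 1.59% and 1.28%.

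Cells with Cxcl10 were rich in other interferon-induced genes. The 88 microglia with a Cxcl10 UMI held 4725 CPM of a list of 12 interferon-induced genes, against 294 CPM in the 6930 without. The difference had the same direction in sham (8753 against 275 CPM), at 7 dpi (4115 against 281) and at 28 dpi (4743 against 313). In the MDM cluster the values were 2506 against 224 CPM, and in the monocyte and dendritic cluster 11356 against 505 CPM for 16 and 1051 cells. Over all microglia the list itself was 382, 342 and 372 CPM on vehicle and 148, 206 and 379 CPM on PLX5622. Cxcl9, another interferon-induced ligand of Cxcr3, was at 137 CPM in Cxcl10 microglia and 9.44 CPM in the rest.

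Outside the microglia Cxcl10 turned on single cells. The 28 dpi PLX5622 MDMs were at 48.2 CPM against 3.82 CPM on vehicle, a log2 ratio of 3.66 (3.10, 4.21), but all 62 UMIs were in 1 of 161 cells. The same cell held 15914 CPM of the interferon list. The other MDM levels were 12.0 and 6.64 CPM in sham and 7 dpi on vehicle and 0 in both PLX5622 libraries, which held 9 and 100 MDMs. In the monocyte and dendritic cluster the vehicle levels were 35.1, 65.2 and 25.1 CPM, from 1, 11 and 4 cells, and no UMI was seen in the 14, 29 and 63 such cells on PLX5622, which allow shares above those on vehicle (1.33%, 1.83% and 1.41%). At 7 dpi 1 of the 11 cells held 78 of the 142 UMIs.

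Cxcl12 was at 1549 CPM in the endothelial cluster (1511 to 1588), 226 CPM in the pericyte or fibroblast cluster and 82.0 CPM in the leptomeningeal cluster. A UMI was present in 803 of 1075 endothelial cells (74.7%, median 2152 UMIs per cell), against 0.427% of microglia (median 2201 UMIs), a type that should lack it. Endothelial CPM was 2559 (2384, 2744) in sham, 993 (942, 1046) at 7 dpi and 1502 (1422, 1584) at 28 dpi on vehicle. On PLX5622 it was 1699 (1596, 1808), 2202 (2081, 2328) and 1811 (1642, 1992). The vehicle libraries dipped at 7 dpi, while the PLX5622 libraries were highest at 7 dpi by CPM, and 7 dpi vehicle was the lowest of all 6.

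The log2 ratio of endothelial Cxcl12 to sham on vehicle was −1.37 (−1.49, −1.24) at 7 dpi and −0.77 (−0.90, −0.64) at 28 dpi. PLX5622 over vehicle was −0.59 (−0.73, −0.45) in sham, 1.15 (1.04, 1.26) at 7 dpi and 0.27 (0.11, 0.43) at 28 dpi. Each of these intervals excluded 0, with opposite signs in sham and after injury. Weighting each cell alike gave −0.78 for 7 dpi over sham and 0.64 for PLX5622 over vehicle at 7 dpi, and without the droplets that Scrublet scored highest as doublets (more than 1 cell in a droplet) the latter was 0.91, so in neither did it reach 2-fold. The share of endothelial cells with a UMI was 82.9%, 70.4% and 73.8% on vehicle and 81.6%, 81.5% and 76.9% on PLX5622. With every cell thinned to 1000 UMIs (2816 of the 21016 cells were too shallow and dropped out), the share was 69.7%, 48.5% and 61.1% on vehicle and 58.8%, 70.4% and 66.0% on PLX5622, the same order as the CPM within each diet.

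Purity of the endothelial cluster also differed between libraries. A list of 12 myeloid genes took 0.418%, 3.05% and 3.78% of its UMIs on vehicle and 0.123%, 0.646% and 0.544% on PLX5622. Cldn5, an endothelial tight junction gene, was at 6765, 4390.5 and 3722 CPM on vehicle and 7243, 5841 and 4391 CPM on PLX5622. Per UMI of Cldn5, Cxcl12 was 0.378, 0.226 and 0.403 on vehicle and 0.235, 0.377 and 0.412 on PLX5622, so the 7 dpi vehicle library stayed lowest and the sham libraries kept their order, but 28 dpi no longer stood below sham on vehicle and 7 dpi was no longer the highest on PLX5622. In endothelial cells with under 3 UMIs of the myeloid list Cxcl12 was at 3678 CPM in sham and 1410 CPM at 28 dpi on vehicle (27 and 7 cells). On PLX5622 it was at 1803 (1479, 2177), 1651 (1190, 2232) and 3118 (2487, 3860) CPM in 19, 13 and 19 cells. There 7 dpi overlapped sham and was below 28 dpi. Cells with few UMIs pass such a filter more easily. The 7 dpi vehicle library had 1 such cell, without Cxcl12. The pericyte gene Pdgfrb was at 110 CPM in endothelial cells with Cxcl12 and 20.7 CPM in those without, while Cldn5 was at 5091 and 4828 CPM. The part of other cell types in these levels was not tested.

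In the pericyte or fibroblast cluster Cxcl12 was at 281, 240 and 361 CPM on vehicle and 65.7, 78.9 and 236 CPM on PLX5622, from 65, 10, 34, 7, 5 and 5 UMIs. In sham PLX5622 over vehicle was −2.10 (−3.47, −0.97) on the log2 scale. The leptomeningeal levels were 101, 0 and 41.7 CPM on vehicle and 106, 73.5 and 0 CPM on PLX5622, and both zeros were in clusters of under 10 cells.

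Cxcl13, the ligand of the B cell receptor Cxcr5, was higher at each later time on vehicle in the monocyte and dendritic cluster, and was not seen in it on PLX5622. On vehicle it was at 76.8 CPM in sham, 211 CPM at 7 dpi and 745 CPM at 28 dpi, from 35, 459 and 475 UMIs. On PLX5622 no UMI was seen in the count table in 14, 29 and 63 cells of that cluster. Over sham the log2 ratio was 1.46 (0.96, 2.00) at 7 dpi and 3.28 (2.78, 3.82) at 28 dpi. Cells with a UMI numbered 2, 29 and 39 on vehicle, or 2.67%, 4.82% and 13.7% of the cluster (1.52%, 3.10% and 12.2% after thinning), against 0.0930% of endothelial cells with a median of 2152 UMIs, where the monocyte and dendritic median was 2872. By exact binomial intervals the PLX5622 zeros allow shares of up to 23.2%, 11.9% and 5.69%, so only at 28 dpi was the share detectably below that on vehicle (9.95% to 18.3%).

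The 70 cells with Cxcl13 differed from the other 997 cells of the cluster in genes that were picked after their values were seen. Marco, a scavenger receptor of macrophages, was at 493 CPM against 3.56, Serpinb2 at 309 against 10.1, Selp at 277 against 11.2 and Timd4, a receptor of resident macrophages, at 306 against 27.1. The platelet and macrophage CXC ligand Pf4 was at 3183 CPM against 500. The dendritic cell genes ran the other way, with the MHC class II gene H2-Aa at 457 CPM against 4244 and Cd209a at 3.60 against 173. Marco, Serpinb2, Selp and Timd4 were at 0 in all 3 PLX5622 libraries of the cluster, where Pf4 was at 953, 26.6 and 0 CPM and H2-Aa at 2482, 5074 and 7284 CPM. The zeros are those of the count table in 14, 29 and 63 cells. That table sets a gene in under 3 cells of a library to 0, so a few such cells could go unseen. Fewer such cells and less Cxcl13 in each cell cannot be told apart here.

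Microglia held Cxcl13 at a lower level with the same order, 1.91, 6.96 and 15.1 CPM on vehicle, from 1, 22 and 53 cells. PLX5622 microglia had none in the count table, where 0 of 126 at 28 dpi allows a share of up to 2.89% against 1.33% on vehicle, and the matrix file of that library held 4 UMIs in 2 microglia. Over sham the log2 ratio was 1.87 (0.42, 3.80) at 7 dpi and 2.99 (1.59, 4.89) at 28 dpi. The 76 microglia with Cxcl13 held 825 CPM of the interferon list against 350 CPM in the rest, and 225 CPM of Cxcl9 against 8.40.

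With the libraries summed, Cxcl16 was highest in the microglia at 239 CPM (232 to 246) and the MDMs at 231 CPM (227 to 236), whose intervals overlapped, followed by the proliferating cluster at 205 CPM, the monocyte and dendritic cluster at 195 CPM (181 to 209) and the leptomeningeal cluster at 193 CPM. Within a library the order differed, and on vehicle microglia stood below MDMs in sham and at 28 dpi and above them at 7 dpi. In microglia it was at 106, 257 and 262 CPM on vehicle and 91.8, 214 and 256 CPM on PLX5622. Sham stood below both injured libraries on either diet, with log2 ratios on vehicle of 1.28 (1.08, 1.49) at 7 dpi and 1.31 (1.11, 1.51) at 28 dpi. PLX5622 over vehicle in microglia was −0.26 (−0.60, 0.06) at 7 dpi and −0.03 (−0.32, 0.24) at 28 dpi, both intervals including 0, so the microglia left under PLX5622 were not detectably different. The share of microglia with a UMI was 24.6%, 45.1% and 33.5% on vehicle and 37.9%, 47.5% and 46.8% on PLX5622, and after thinning 9.85%, 19.1% and 22.3% on vehicle and 20.0%, 18.5% and 28.3% on PLX5622. T and NK cells, a type that should lack Cxcl16, held a UMI in 1.49%, 10.5% and 13.5% of cells on vehicle, at medians of 3669, 1510 and 1233 UMIs, against 3178, 2902.5 and 1686 in microglia.

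MDMs showed another order of Cxcl16. The levels were 343, 187 and 285 CPM on vehicle and 185, 201 and 267 CPM on PLX5622, where sham held 9 MDMs. The log2 ratio to sham on vehicle was −0.88 (−1.02, −0.74) at 7 dpi, and PLX5622 over vehicle was 0.11 (−0.06, 0.26) at 7 dpi and −0.09 (−0.26, 0.06) at 28 dpi. The monocyte and dendritic cluster was at 134, 191 and 210 CPM on vehicle and 12.5, 377 and 170 CPM on PLX5622, with PLX5622 over vehicle at 0.98 (0.65, 1.30) at 7 dpi. The sham PLX5622 value was 1 UMI in 14 cells, a log2 ratio of −3.42 (−8.74, −0.88).

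**Figure D3:**
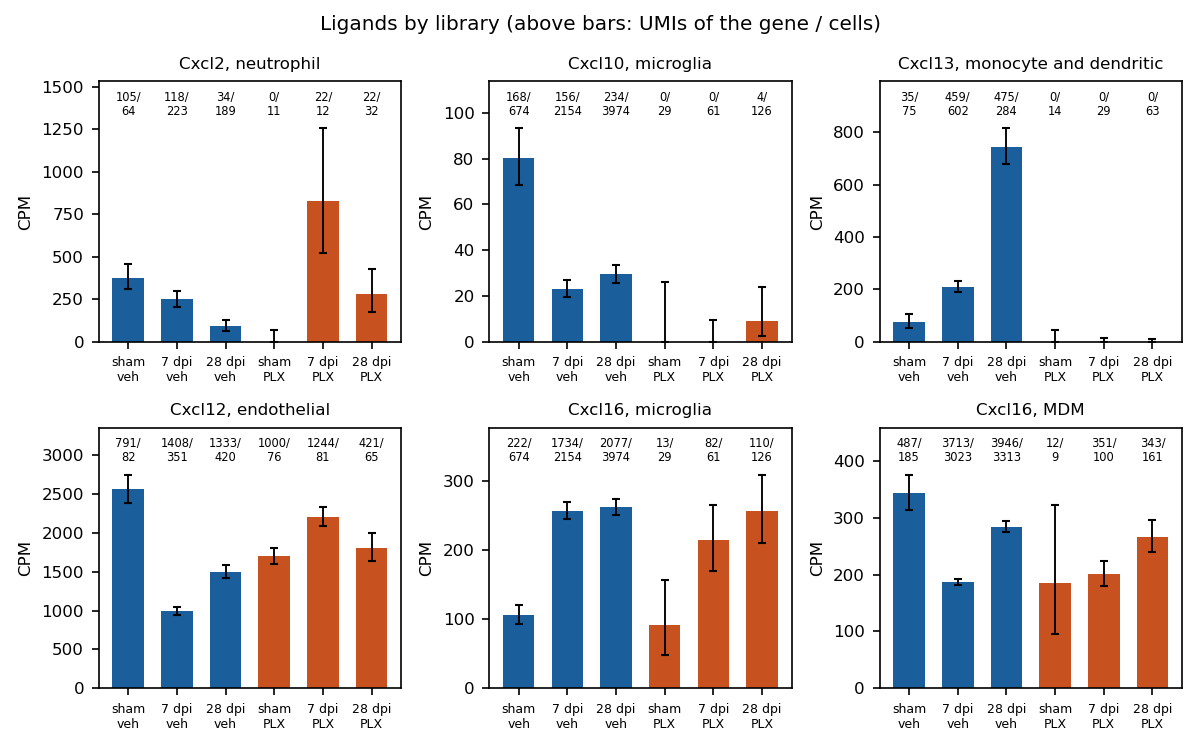
CPM of 5 ligands in named clusters by library (bars, exact Poisson 95% intervals; blue vehicle, orange PLX5622; UMIs and cells above the bars). Endothelial Cxcl12 is lowest in the 7 dpi vehicle library at 993 CPM, Cxcl13 in the monocyte and dendritic cluster reaches 745 CPM at 28 dpi on vehicle with 0 on PLX5622, and microglial Cxcl16 is 106 and 91.8 CPM in sham and at least 214 CPM after injury.

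In 4 other clusters low levels of Cxcl16 were highest in the injured vehicle libraries, where the myeloid list was also highest. In the injured vehicle libraries (7 and 28 dpi) Cxcl16 was at 75.7 and 112 CPM in T and NK cells, 89.2 and 105 CPM in B cells, 109 and 123 CPM in astrocytes and 34.9 and 72.8 CPM in ependymal cells. The sham vehicle levels of these 4 clusters were 3.60, 0, 8.98 and 0 CPM. On PLX5622 they were at most 20.5 CPM. The myeloid list in T and NK cells was 5147, 67103 and 57481 CPM on vehicle and 1248, 4229 and 4398 CPM on PLX5622. The oligodendrocyte lineage did not have this order of Cxcl16. It was at 25.6, 21.4 and 28.5 CPM on vehicle, with 212, 8022 and 1996 UMIs of the myeloid list, and at 20.4 CPM at 7 dpi on PLX5622. These levels came from 2, 7, 3 and 3 Cxcl16 UMIs. Erythroid cells were at 28.2, 215 and 177 CPM on vehicle.

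Per 1000 UMIs of the myeloid list, Cxcl16 was 1.41, 1.89 and 1.97 in microglia and 3.07, 1.39 and 1.89 in MDMs (sham, 7 dpi and 28 dpi on vehicle). At 7 and 28 dpi it was 1.13 and 1.95 in T and NK cells, 1.17 and 1.45 in B cells and 1.18 and 1.42 in astrocytes, in the range of microglia and MDMs or below it. Ependymal cells were at 1.28 and 2.75, and the 28 dpi value (2.07 to 3.57) lay above microglia and MDMs. The monocyte and dendritic cluster was higher at 3.59 and 3.56, and the proliferating cluster at 2.48 and 3.19. The leptomeningeal cluster stood apart at 186, 63.3 and 8.31, and the pericyte or fibroblast cluster at 37.4, 12.3 and 4.58. Leptomeningeal Cxcl16 was 207 CPM in sham on vehicle and 208 CPM on PLX5622, a log2 ratio of 0.01 (−0.48, 0.50), and so was present where myeloid RNA was scarce. The endothelial cluster was at 4.65 in sham, from 6 UMIs, and 1.60 and 1.79 after injury. The part of myeloid RNA in the level of each cluster was not tested otherwise.

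**Figure D4:**
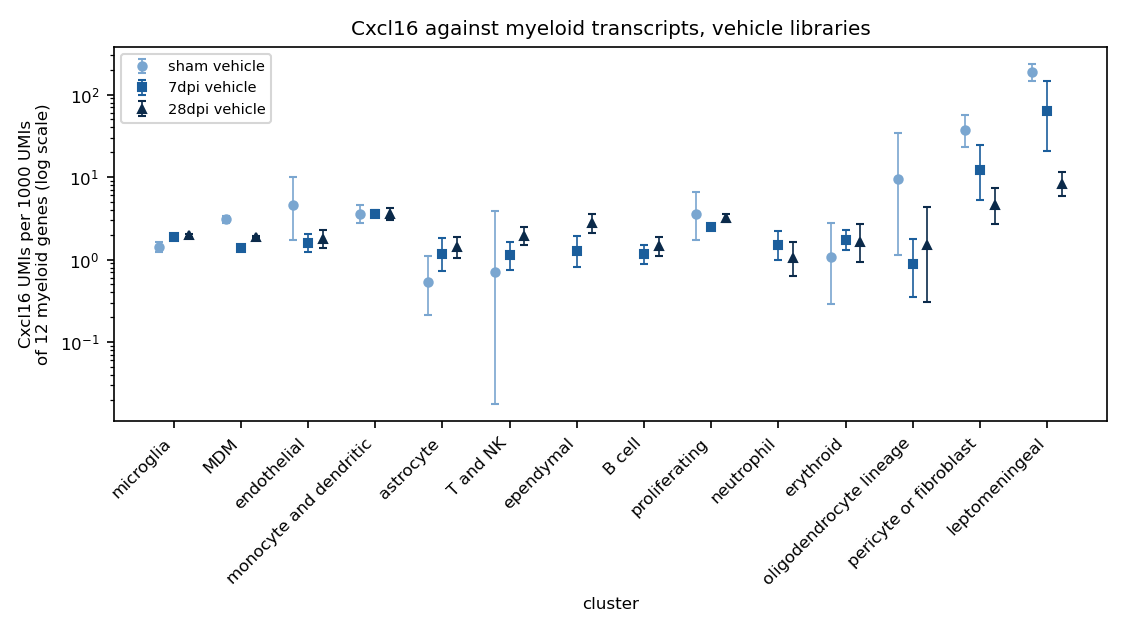
Cxcl16 UMIs per 1000 UMIs of 12 myeloid genes (y axis, log scale) in each cluster (x axis) for the 3 vehicle libraries, points with 95% intervals. After injury T and NK cells, B cells and astrocytes lie at 1.13 to 1.95, near microglia and MDMs and below the monocyte and dendritic cluster at 3.59 and 3.56. Ependymal cells lie at 1.28 and 2.75, the latter above microglia and MDMs. The leptomeningeal cluster is at 186, 63.3 and 8.31.

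Cxcr2, the receptor for Cxcl1 and Cxcl2, was at 581 CPM in the neutrophil cluster. The level was 807, 482 and 397 CPM on vehicle (225, 228 and 144 UMIs) and 881, 1055 and 858 CPM on PLX5622 (48, 28 and 67 UMIs). Vehicle neutrophils after injury were below sham, and all 3 PLX5622 libraries were above every vehicle library. The log2 ratio to sham on vehicle was −0.74 (−1.02, −0.47) at 7 dpi and −1.02 (−1.34, −0.71) at 28 dpi. PLX5622 over vehicle was 0.13 (−0.35, 0.58) in sham, 1.13 (0.51, 1.70) at 7 dpi and 1.11 (0.67, 1.54) at 28 dpi. The 7 dpi difference depended on scaling, with 0.04 under TMM factors and −0.29 under DESeq2 size factors, which also moved the median of all genes in that comparison from 0.23 to −0.86 and −1.20.

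The share of neutrophils with a Cxcr2 UMI was 87.5%, 52.9% and 47.1% on vehicle and 100%, 83.3% and 84.4% on PLX5622, and after thinning 50%, 40.0% and 29.5% on vehicle and 72.7%, 58.3% and 51.9% on PLX5622. Among MDMs, which should hold little, 0.589% had a UMI, at a median of 4705 UMIs per cell against 1563 in neutrophils. Myeloid RNA took 0.754%, 3.78% and 5.05% of neutrophil UMIs on vehicle and 0.796%, 1.41% and 0.869% on PLX5622, and its part in the vehicle levels was not tested.

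With the libraries summed, Cxcr4, the receptor of Cxcl12, had its highest level in neutrophils at 251 CPM (224 to 280). Ependymal cells at 161 CPM (147 to 175) and B cells at 112 CPM (96.5 to 130) followed, and none of these intervals overlapped. The monocyte and dendritic cluster at 83.3 CPM and the MDMs at 80.9 CPM came next and did not differ beyond their intervals. Within a library the order differed. In sham on vehicle B cells were at 341 CPM, neutrophils at 323 and ependymal cells at 205. Microglia were low at 14.6 CPM. A UMI was present in 36.7% of neutrophils and 30.6% of MDMs, against 2.26% of astrocytes, whose median was 1435.5 UMIs.

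Neutrophil Cxcr4 was 323, 175 and 160 CPM on vehicle and 220, 1206 and 577 CPM on PLX5622, from 90, 83, 58, 12, 32 and 45 UMIs. The vehicle libraries were lower after injury, with log2 ratios to sham of −0.88 (−1.33, −0.43) at 7 dpi and −1.01 (−1.51, −0.52) at 28 dpi, and the PLX5622 libraries were higher. PLX5622 over vehicle was 2.78 (2.14, 3.39) at 7 dpi and 1.85 (1.26, 2.44) at 28 dpi. At 7 dpi on PLX5622 11 of 12 cells held a UMI, and the ratio was 2.23 without the highest cells, 1.69 under TMM and 1.36 under DESeq2 factors. Thinned shares were 36.2%, 16.8% and 13.95% on vehicle and 18.2%, 75.0% and 44.4% on PLX5622, where the unthinned shares were 65.6%, 29.1% and 24.3% and 81.8%, 91.7% and 68.8%.

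Neutrophils of the 7 dpi PLX5622 library differed in other genes too. S100a8, an abundant neutrophil calcium-binding protein, was at 65383 CPM there against 110844 to 187300 CPM in the other 5 libraries. Retnlg was at 1997 CPM against at least 12633 CPM, and the granule genes Camp and Ngp, which mark young neutrophils, were at 0 in those 12 cells. Whether the Cxcr4, Cxcr2 and Cxcl2 levels of these cells go with their makeup was not tested.

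In MDMs Cxcr4 was at 65.6, 81.8 and 71.5 CPM on vehicle and 0, 109 and 152 CPM on PLX5622. PLX5622 over vehicle was 0.42 (0.20, 0.64) at 7 dpi and 1.08 (0.85, 1.31) at 28 dpi. Thinned shares of MDMs with a UMI were 4.57%, 8.78% and 6.84% on vehicle and 13.1% and 10.7% at 7 and 28 dpi on PLX5622. Monocyte and dendritic cells were at 94.4, 64.2 and 58.0 CPM on vehicle and 50.1, 293 and 83.4 CPM on PLX5622, with 77 UMIs in 21 of 29 cells at 7 dpi and a log2 ratio of 2.19 (1.77, 2.60). In the 7 dpi libraries Cxcr4 was thus higher on PLX5622 in neutrophils, in MDMs and in the monocyte and dendritic cluster. It was lower in the endothelial cluster, with a log2 ratio of −2.29 (−4.22, −0.84). Intervals of the microglia, ependymal, B cell, proliferating, and T and NK clusters included 0.

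Cxcr4 in microglia was at 0.954 CPM in sham, from 2 UMIs in 674 cells, and at 15.3 and 18.3 CPM at 7 and 28 dpi on vehicle. Over sham the log2 ratio was 4.00 (2.11, 7.06) at 7 dpi and 4.26 (2.38, 7.32) at 28 dpi. PLX5622 microglia were at 0, 10.4 and 11.6 CPM. Shares of microglia with a UMI after thinning were 0.365%, 1.36% and 1.83% on vehicle, against 0.444%, 1.96% and 0.680% of astrocytes (3.26% and 2.26% unthinned over all libraries, at medians of 2201 and 1435.5 UMIs). Each thinned astrocyte share was 1 cell, and astrocytes of the 7 dpi vehicle library also held myeloid RNA (16987 of 183753 UMIs), so whether microglial Cxcr4 lies above background could not be judged from them.

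B cells held Cxcr4 at 341, 92.2 and 104 CPM on vehicle and 93.2, 74.5 and 170 CPM on PLX5622. The log2 ratio on vehicle was −1.89 (−2.58, −1.15) for 7 dpi over sham. The sham levels came from 25 UMIs in 23 cells on vehicle and 6 UMIs in 18 cells on PLX5622. On vehicle the myeloid list held 501 of 73262 B cell UMIs in sham, 50256 of 661686 at 7 dpi and 42841 of 588352 at 28 dpi. Its part in the B cell levels was not tested. Ependymal cells, the ciliated lining of the central canal, varied less, with 205, 141 and 142 CPM on vehicle and 162, 154 and 195 CPM on PLX5622. Thinned shares of ependymal cells ran from 10.2% to 15.0%. Ependymal cells with Cxcr4 held 668 CPM of the ciliary regulator Foxj1, against 554 CPM in those without. In the endothelial cluster Cxcr4 was at 3.24, 34.6 and 14.6 CPM on vehicle and 6.80, 7.08 and 8.60 CPM on PLX5622, and the vehicle libraries of 7 and 28 dpi, highest in Cxcr4, were those with 3.05% and 3.78% of myeloid UMIs.

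**Figure D5:**
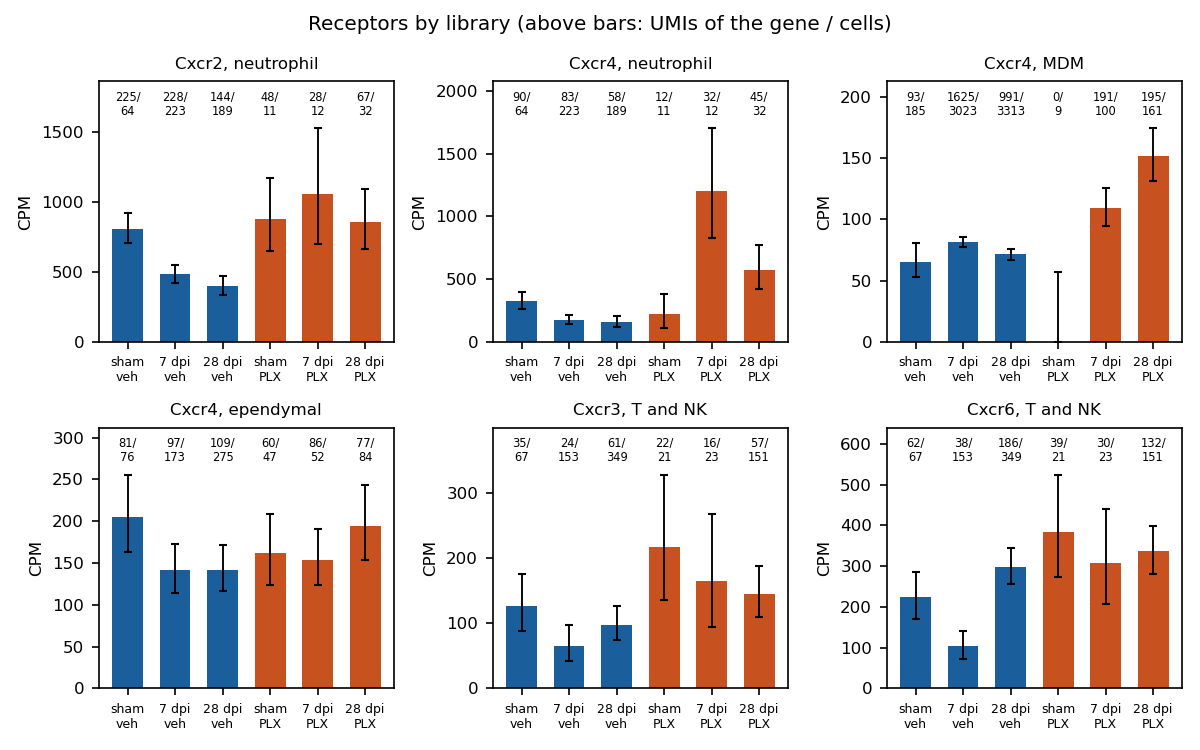
CPM of 4 receptors in named clusters by library (bars, exact Poisson 95% intervals; blue vehicle, orange PLX5622; UMIs and cells above the bars). Neutrophil Cxcr4 reaches 1206 CPM at 7 dpi on PLX5622 against 175 CPM on vehicle, neutrophil Cxcr2 is 397 to 482 CPM in the injured vehicle libraries and at least 807 CPM in the other 4, and ependymal Cxcr4 lies between 141 and 205 CPM.

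Cxcr3, the receptor of Cxcl10, was at 115 CPM in the T and NK cluster, and the next cluster, monocyte and dendritic, was at 7.13 CPM. Its level in T and NK cells was 126, 64.8 and 97.7 CPM on vehicle (35, 24 and 61 UMIs) and 216, 164 and 145 CPM on PLX5622 (22, 16 and 57 UMIs). Each PLX5622 library stood above the vehicle library of the same day. The log2 ratio was 0.78 (−0.06, 1.59) in sham, 1.34 (0.33, 2.31) at 7 dpi and 0.57 (0.02, 1.11) at 28 dpi. The sham interval included 0, and the 7 dpi ratio was from 40 UMIs. On vehicle 7 dpi over sham was −0.96 (−1.77, −0.17). The share of cells with a UMI was 32.8%, 13.7% and 14.6% on vehicle and 28.6%, 30.4% and 27.2% on PLX5622. Thinned shares were 16.4%, 11.6% and 8.71% on vehicle and 9.52%, 17.4% and 9.46% on PLX5622, in which sham no longer had the order of the CPM. Of endothelial cells 0.0930% held a UMI, at a median of 2152 against 1692.5 in T and NK cells.

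Cxcr6, the receptor of Cxcl16, was at 261 CPM in the same cluster. It was at 223, 103 and 298 CPM on vehicle (62, 38 and 186 UMIs) and 383, 308 and 336 CPM on PLX5622 (39, 30 and 132 UMIs). The 7 dpi vehicle library was the lowest, as for Cxcr3, with log2 ratios of −1.12 (−1.74, −0.51) to sham, and 28 dpi over 7 dpi was 1.54 (1.03, 2.08). PLX5622 over vehicle was 1.58 (0.84, 2.31) at 7 dpi and 0.17 (−0.16, 0.50) at 28 dpi. Shares were 29.9%, 15.7% and 35.8% on vehicle and 28.6%, 39.1% and 42.4% on PLX5622, and thinned shares 18.0%, 9.09% and 27.8% on vehicle and 23.8%, 13.04% and 27.0% on PLX5622, against 0.186% of endothelial cells. The myeloid list took 67103 CPM of the T and NK cluster at 7 dpi on vehicle and 4229 CPM on PLX5622, and its part in the lower vehicle levels was not tested.

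The T and NK cluster was split by a Cd3 gene, a mark of T cells, and by NK markers. In 511 cells with a Cd3 gene and no NK marker Cxcr6 was at 289 CPM (260 to 320) and Cxcr3 at 122 CPM (103 to 143). In 137 cells with NK markers and no Cd3 gene they were at 61.5 CPM (37.0 to 96.1) and 68.0 CPM (42.1 to 104). Cxcr6 was thus higher in the Cd3 cells, while the Cxcr3 intervals overlapped. At 7 dpi on vehicle Cxcr3 was at 69.3 CPM in the former and 72.5 CPM in the latter. In 51 cells with neither mark Cxcr6 was at 245 CPM (152 to 374) and Cxcr3 at 128 CPM (64.0 to 229). Of the cells with Cxcr3, 48.6% also held Cxcr6, against 28.6% of the cells without Cxcr3. In the cells with a Cd3 gene and no NK marker Cxcr6 was 296, 113 and 330 CPM on vehicle and 215, 338 and 361 CPM on PLX5622, so the 7 dpi vehicle library was lowest there too. Among neutrophils 43.7% of cells with Cxcr2 held Cxcr4, against 26.8% of those without. Cells with more UMIs are more likely to show any pair of genes, and depth was not adjusted for in these overlaps.

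Ratios past 2-fold were counted among members whose UMIs in the libraries compared summed to 50 or more, and set against the same count over all genes of that cluster. In microglia 5 of 5 members were past 2-fold at 7 dpi over sham, where 28.2% of all genes were, and 4 of 4 at 28 dpi, where 18.3% were. Cxcl13, Cxcl16 and Cxcr4 were higher and Cxcl10 lower at both days (the latter through 1 sham cell), and Cxcl2 was higher at 7 dpi. Cxcl2, Cxcl13 and Cxcr4 had only 0, 4 and 2 UMIs in sham microglia and were counted through the injured library in which they were high, so the count is no support for a change. The median log2 ratio of the members was 1.87 and 2.15, beside −0.57 and −0.46 for all genes. PLX5622 over vehicle had 1 of 4 past 2-fold at 7 dpi (10.2% of all genes) and 2 of 4 at 28 dpi (10.6%), all lower, namely Cxcl10 at both days and Cxcl13 at 28 dpi, of which the 7 dpi Cxcl10 and 28 dpi Cxcl13 calls were zeros in 61 and 126 cells.

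MDMs had 1 of 4 members past 2-fold at 7 dpi over sham (Cxcl2 lower, 17.8% of all genes) and 1 of 4 at 28 dpi (Cxcl10 lower, 9.52%). The MDM medians were −0.87 and −0.50, beside −0.27 and −0.26 for all genes. For PLX5622 over vehicle it was 1 of 4 at 7 dpi (Cxcl10 lower, 6.02%) and 3 of 4 at 28 dpi (Cxcl2 lower, Cxcl10 and Cxcr4 higher, 7.11%). The 7 dpi call on PLX5622 was a zero in 100 cells. Of the 28 dpi calls on PLX5622, Cxcl10 was 1 cell, Cxcl2 was 6 UMIs with a log2 ratio of −1.01 (−2.48, 0.15), and 1 call was left with each cell weighted alike. Both calls over sham were lost without the highest cells, and that of 7 dpi also under TMM and DESeq2 factors.

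Neutrophils had 0 of 3 members past 2-fold at 7 dpi over sham, where 24.2% of all genes were, and 3 of 3 at 28 dpi, where 21.3% were, all lower. PLX5622 over vehicle had 3 of 3 higher at 7 dpi (32.7% of all genes in either direction) and 3 of 3 higher at 28 dpi (29%). The 7 dpi count on PLX5622 was 1 under TMM, 1 under DESeq2 and 1 without the highest cells, and 28 dpi over sham was 1 without Scrublet doublets. The 7 dpi count over sham was 3 among cells with at least 500 genes. The medians of Cxcl2, Cxcr2 and Cxcr4 were −0.74, −1.02, 1.73 and 1.59 in the 4 comparisons, beside 0.03, −0.13, 0.23 and −0.05 for all genes.

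In the endothelial cluster 3 of 3 members were past 2-fold at 7 dpi over sham (Cxcl12 lower, Cxcl16 and Cxcr4 higher, 11.6% of all genes), 1 of 2 at 28 dpi (Cxcl16 higher, 9.12%) and 3 of 3 for PLX5622 over vehicle at 7 dpi (Cxcl12 higher, Cxcl16 and Cxcr4 lower, 7.04%). Endothelial Cxcl16 and Cxcr4 were highest in the vehicle libraries of 7 and 28 dpi, which also held most myeloid RNA, and its part was not tested. Cxcl16 and Cxcr4 had 6 and 1 UMIs in sham against 69 and 49 at 7 dpi and were counted through the library in which they were high, so the count is no support for a change. Without Scrublet doublets the 3 counts were 1, 0 and 0. The comparisons of a cluster share libraries and are not independent of each other.

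Other genes of the family came from a list of 17, of which 14 were in the table. The remaining genes Cxcl5, Cxcl15 and Cxcl17 were not analysed here. Cxcl3, Cxcl11 and Cxcr1 had 7, 12 and 38 UMIs. Cxcr5, the receptor of Cxcl13, had 86.6% of its 157 UMIs in B cells, at 177, 58.9 and 76.5 CPM on vehicle and 140, 182 and 64.8 CPM on PLX5622. Cxcl9 in microglia was 22.9, 6.07 and 13.9 CPM on vehicle and 0 in the 3 PLX5622 libraries, and 47 of the 48 sham UMIs were in 1 cell. In the monocyte and dendritic cluster it was 2.19, 31.2 and 65.9 CPM on vehicle, with 66 of the 68 UMIs of 7 dpi in 1 cell. On PLX5622 the count table gave 0 in the 14, 29 and 63 cells of that cluster. The 28 dpi matrix file held 2 Cxcl9 UMIs that the table had set to 0. They were in 2 cells, of this cluster and the proliferating cluster. Ackr3, a scavenging receptor of Cxcl12, was highest in the pericyte or fibroblast cluster at 865, 216 and 138 CPM on vehicle and 798, 694 and 189 CPM on PLX5622. That cluster held 41, 20 and 66 cells on vehicle and 19, 10 and 12 on PLX5622. By CPM the injured libraries were below sham on both diets. The gap was small at 7 dpi on PLX5622, where no difference is claimed.

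Cxcl14 had its highest level in astrocytes, at 929, 239 and 476 CPM on vehicle and 1019, 724 and 713 CPM on PLX5622, but 55.6% of its 9193 UMIs were in the MDM cluster (134 CPM) and 19.0% in astrocytes. Pf4 was at 689.6 CPM and Ppbp at 57.3 CPM in the monocyte and dendritic cluster. Of the proteases that act on members, Adam10, which sheds Cxcl16, was at 270.4 CPM in the endothelial cluster and 184 CPM in microglia, Adam17 was at 117 CPM in microglia and 116 CPM in MDMs, and Dpp4, which trims several ligands, was at 188 CPM in the pericyte or fibroblast cluster. Mif, a non-CXC ligand of Cxcr2 and Cxcr4, was broad, with 24504 UMIs. Ackr1, a chemokine-binding protein of venules, had 79.8% of 233 UMIs in the endothelial cluster, in 27 cells.

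The genes with patterns most like a member were found over 75 sums of cluster and library, as Pearson's r of log2(CPM + 10) among 9451 genes. The sums share libraries and clusters, and r describes them only. Cxcr6 was most like Cd3e (0.99), Cd3g (0.99) and Ctsw (0.98), and Cxcr3 most like Cd8b1 (0.98), Cd3e (0.96) and Cxcr6 (0.96). Cxcr2 was most like Mmp9 (0.96), Retnlg (0.93) and Mmp8 (0.92), and Cxcl2 most like Clec4e (0.85), Clec4d (0.79) and Cd300lb (0.78). Cxcl12 was most like 9430020K01Rik (0.95), Slc22a8 (0.93) and C130074G19Rik (0.92), and Cxcl13 most like Alox15 (0.88), Retnla (0.81) and Fcna (0.80). Cxcl16 was most like Hexa (0.89), 5430435G22Rik (0.85) and Renbp (0.84). The first gene was Tnf for Cxcl10 (0.62) and Fam107b for Cxcr4 (0.70).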

How the data were processed

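Cells of mouse spinal cord were profiled with a droplet method that counts UMIs at the 3′ end of transcripts, in 6 pooled libraries. Reads were aligned by the authors in Cell Ranger (3.0.2 in the matrix headers, GRCm38/mm10 in the submitters' notes), filtered cells on gene number and mitochondrial share, clustered them with Seurat and deposited raw UMI counts per cell with the cluster of each cell, all in one table. In that table a gene with a UMI in under 3 cells of a library is set to 0 there, which removed 12 UMIs of the 10 genes in 6 gene and library pairs, at most 4 in any. The matrix files hold 21270 barcodes, of which 254 are not in the table and hold 1 UMI of these genes.

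Counts were summed per cluster and library (Python 3.11.15, numpy 2.4.6, pandas 2.3.3, scipy 1.17.1). Ratios of CPM carry exact binomial 95% intervals. A library at 0 was set to a floor of 3 counts. A ratio was counted past 2-fold where both libraries together held at least 50 UMIs. Named are all 10 members, the family list, and the 3 genes most like each of the 9 members with at least 200 UMIs. Members and lists were chosen with earlier results of these data known. The calculations were tested on simulated data. TMM factors came from edgeR 4.0.16 and size factors from DESeq2 1.42.0 (R 4.3.3), used for scaling only. Scrublet (scanpy 1.11.5) was run per library. Doublets and free RNA were not removed from the main values. Genome coordinates and promoters are from RefSeq GRCm38.p6. Cxcl10, Cxcl16 and Cxcr6 overlap genes on the other strand (Art3, Zmynd15 and Fyco1).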

Additional observations from a re-analysis of the deposited data

Results flagged for a closer look

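Among ratios with at least 50 UMIs in the pair of libraries, PLX5622 over vehicle had opposite signs between days, with both counting intervals excluding 0, for 5 genes in a cluster. None of these differences between days was tested, since each library is 1 sample. Endothelial Cxcl12 had log2 ratios of −0.59 in sham, 1.15 at 7 dpi and 0.27 at 28 dpi. Neutrophil Cxcl2 had −2.77 in sham (a bound from 11 PLX5622 cells at 0 in the count table, where the matrix file holds 2 UMIs in 1 of them), 1.73 at 7 dpi and 1.59 at 28 dpi. Cxcr4 in MDMs had −0.51 in sham (a bound from 9 PLX5622 cells), 0.42 at 7 dpi and 1.08 at 28 dpi. Cxcl16 in the monocyte and dendritic cluster had −3.42 in sham, from 1 UMI on PLX5622, and 0.98 at 7 dpi. Cxcl10 in MDMs had −1.95 at 7 dpi (a bound from 100 PLX5622 cells at 0) and 3.66 at 28 dpi, the latter from 1 cell.

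The matrix file of the 28 dpi PLX5622 library held 4 UMIs of Cxcl13, in 2 microglia, that the count table gives as 0. The zeros of Cxcl13 in PLX5622 microglia therefore do not mean that no transcript was captured.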

How the results depend on the processing

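The 53 log2 ratios gave 454 values under alternatives, of which 396 stayed within the counting interval, 55 moved beyond it and 3 changed sign. The settings of at least 20 and at least 100 UMIs only choose which ratios are kept. Their 53 and 43 unchanged values were therefore fixed in advance and say nothing of robustness. The matrix files differ in only 6 gene and library pairs, and 52 ratios stayed within the interval there. Cxcl10 in microglia at 28 dpi over sham changed sign without the highest cell of each library (0.19). Cxcl2 in MDMs for PLX5622 over vehicle at 28 dpi did so with each cell weighted alike (0.42). Cxcr2 in neutrophils for PLX5622 over vehicle at 7 dpi did so with DESeq2 size factors (−0.29). Counts of members past 2-fold changed by over 1.5 times as follows. In microglia, 7 dpi over sham became 3 with at least 100 UMIs and 3 without the highest cells, PLX5622 over vehicle became 2 at 7 dpi with each cell weighted alike, and at 28 dpi 1 with UMIs of the matrix files and 1 without the highest cells. In MDMs, 7 dpi over sham became 0 with TMM, 0 with DESeq2, 0 without the highest cells, 2 with at least 20 UMIs and 3 with each cell weighted alike. The 28 dpi count became 2 with each cell weighted alike, 2 with at least 20 UMIs, 0 with at least 100 and 0 without the highest cells. PLX5622 over vehicle became 2 at 7 dpi with at least 20 UMIs and 2 without the highest cells, and at 28 dpi 1 with each cell weighted alike. In neutrophils, 7 dpi over sham became 3 among cells with at least 500 genes and 1 with at least 20 UMIs, 28 dpi over sham 1 without Scrublet doublets, and PLX5622 over vehicle at 7 dpi 1 with TMM, 1 with DESeq2 and 1 without the highest cells. In the endothelial cluster, 7 dpi over sham became 1 without Scrublet doublets and 1 with at least 100 UMIs, 28 dpi over sham 0 and 0 under the same alternatives, and PLX5622 over vehicle at 7 dpi 0 without Scrublet doublets, 5 with at least 20 UMIs and 1 with at least 100. The causes were not tested. DESeq2 and TMM factors moved the median log2 ratio of all genes in neutrophils at 7 dpi on PLX5622 to −1.20 and −0.86, and in MDMs at 7 dpi over sham to 0.17 and 0.03. Of 54 shares of cells with a UMI, 34 moved on thinning. With log2(CPM + 1), 7 of 9 members kept at least 2 of their 3 like genes. Scrublet's own threshold called 1 of 9846 cells at 28 dpi on vehicle, so the highest-scoring cells were left out up to 0.8% per 1000 barcodes (1362 cells), a rate chosen after seeing the data, as were leaving out the highest cells and using the matrix files. No paired analysis was possible because each condition is 1 library, and for the same reason no library could be left out. Depth limits Cxcl1, and all PLX5622 clusters of under 20 cells.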
